A study of Mus musculus with 17 samples.

Results

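RNA abundance after knockdown of Msi2 was compared with a scrambled control in mouse keratinocytes, using the 6 RNA libraries of a series of 17. The libraries were chosen by their labels, 3 knockdown and 3 control, and all genes of the deposited count table were eligible. Of 20572 genes, 11117 had enough reads to test, 6272 had no read in any of the 6 libraries and 3183 had some reads but too few. The cells of both groups were keratinocytes of newborn C57BL/6 mice that had immortalised spontaneously in culture, grown for the first 3 passages on J2 3T3 fibroblasts stopped from dividing with mitomycin. Control cells received a lentivirus with a scrambled short hairpin RNA and knockdown cells a lentivirus with a hairpin against Msi2. Both were put under puromycin at 2 ug/ml from day 2 after infection, for 2 days, and then expanded. The libraries were strand-specific and made from polyadenylated RNA. Nothing in the labels ties the 3 libraries per group to independent cultures, and every p-value here reflects library-to-library spread alone, possibly of technical origin.

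Msi2 encodes Musashi-2, an RNA-binding protein best known in stem cells and cancers, which recognises short UAG-containing elements, mainly in 3' untranslated regions, and affects the translation and stability of the bound mRNA. Keratinocytes of the basal layer of the epidermis are attached to the basement membrane through hemidesmosomes and express the keratins Krt5 and Krt14. The level of an mRNA reflects both its synthesis and its decay, and this assay does not separate them.

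The libraries held between 9221566 and 26785876 reads counted over coding sequences, and levels are given as CPM, counts scaled to library size with TMM factors, which are not corrected for gene length. Reads that aligned to several places made up 13.4 to 17.4% of the control libraries and 19.8 to 24.5% of the knockdown libraries. All 12 keratinocyte markers could be tested. The knockdown had 4 of them called higher and 4 called lower, and their summed level, to which the abundant keratins contribute most, was 17707 to 21423 CPM in control libraries and 14933 to 16561 CPM in knockdown libraries. Of 10 fibroblast markers, 6 had no read in any library, among them the collagens Col1a2 and Col3a1, and the 10 summed to 0.942 to 1.38 CPM in the control and 2.18 to 2.59 CPM in the knockdown. Of 7 immune markers, 4 were at 0 and the summed level was 16.0 to 18.6 CPM in the control and 8.30 to 13.4 CPM in the knockdown. Endothelial markers summed to 1.33 to 2.48 CPM in the control and 3.36 to 5.09 CPM in the knockdown. Muscle markers summed to 2.48 to 4.50 and 6.01 to 8.52 CPM. In each of these 4 lists only 1 marker had enough reads to test, called lower for the immune list and higher for the others. In bulk RNA, fewer cells of a type and less RNA per cell cannot be told apart.

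The targeted gene was read first. Msi2 (chromosome 11, 88339382 to 88718306, GRCm38.p6) was at 6.51, 6.64 and 8.82 CPM in the control libraries and 6.55, 6.41 and 5.10 CPM in the knockdown libraries. The groups overlapped, and the log2 fold change of knockdown over control was -0.29 ± 0.21 (SE of the fit; edgeR quasi-likelihood test with Benjamini-Hochberg adjustment, adjusted p = 0.283). With each library's trend with genomic span removed, the difference was -0.55 and passed (edgeR adjusted p = 0.0297). No other alternative fit of Msi2 passed. Its difference was -0.36 without control replicate 2 (edgeR adjusted p = 0.226) and -0.15 without control replicate 3 (0.614), the lowest and highest p among them. Ribosome footprints over Msi2, counted in separate libraries, fell by 2.08 ± 0.41 on the log2 scale (edgeR adjusted p = 0.000285). The related gene Msi1 averaged 0.870 CPM in control libraries and 1.58 CPM in knockdown libraries, with overlapping groups (edgeR adjusted p = 0.0961).

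The RNA of many genes differed, and most differences were small. At an adjusted p under 0.05, 2449 genes were higher in the knockdown (22% of those tested) and 2417 were lower (21.7%), 43.8% in all. The 3 libraries of one group lay entirely above or below those of the other for 52.9% of tested genes. The median fold change over all genes was 0.00 on the log2 scale. Among called genes the median size was 0.63, and 1492 of them (30.7%) changed by less than 0.5 on the log2 scale. A change of 2 or more on the log2 scale was seen in 64 higher and 89 lower genes. In mean CPM the higher genes summed to 165421 in control libraries and 252371 in knockdown libraries, and the lower genes to 338804 and 228417. Those sums are measured on the groups that made the calls and are given as a description.

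At the other end, 57 genes that were not called had a 95% interval of the log2 fold change within -0.25 and 0.25. The median standard error was 0.12 even in the highest quintile of average level, so only genes with estimates near 0 could meet this limit. The 57 are therefore no count of all unchanged genes. Ctnnb1, which encodes beta-catenin, the armadillo protein of adherens junctions and Wnt signalling, was the most highly expressed of the 57. Its level was 335, 327 and 334 CPM in control libraries and 335, 329 and 327 CPM in knockdown libraries, a difference of -0.01 ± 0.11 on the log2 scale. The 10 such genes of the highest level also held the RNA exonuclease gene Xrn2 (200 CPM on average in both groups), the deacetylase gene Hdac3 (140 CPM in both), the histone deacetylase complex gene Mta2, the polyadenylation scaffold gene Sympk and the coatomer gene Copb1.

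**Figure D1:**
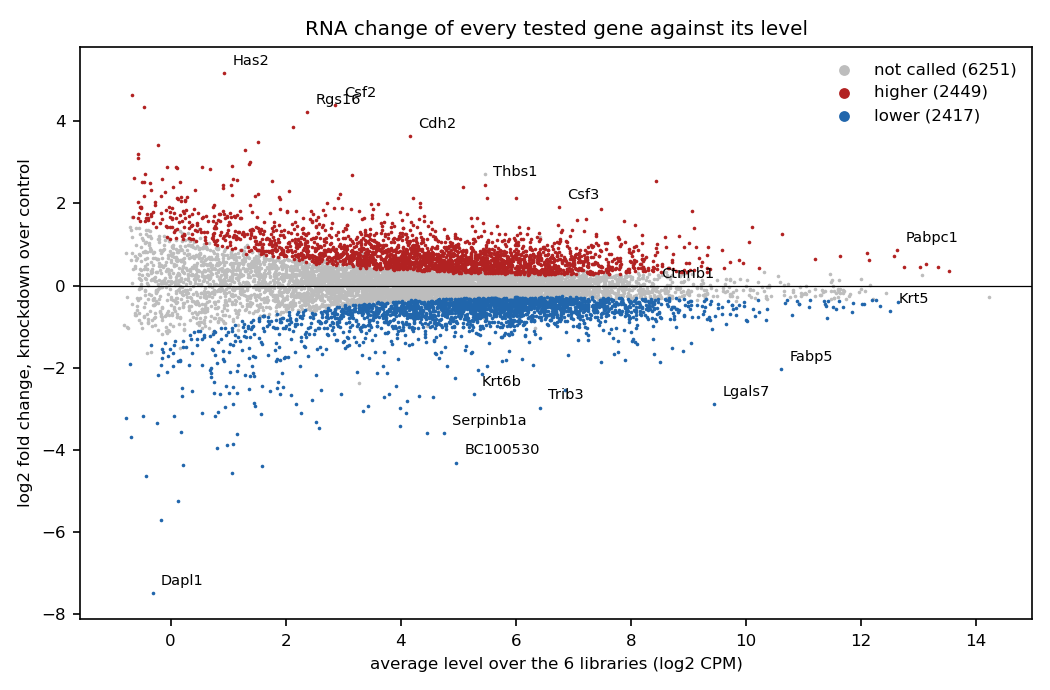
Each point is 1 of the 11117 tested genes; the x axis gives the average level over the 6 libraries (log2 CPM) and the y axis the log2 fold change of knockdown over control, with 2449 higher genes in red, 2417 lower genes in blue and the others in grey. The largest folds lie at low levels, while Fabp5 and Lgals7 stand out among abundant genes.

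The genes with the largest rises, or the smallest p among rises, in their class of level or span included the following. Picks by size of rise were limited to called genes whose groups do not overlap, so neither trait is a finding about them. Has2, the main hyaluronan synthase of skin (chromosome 15, 56665627 to 56694546), was at 0.0513, 0.0437 and 0.257 CPM in control libraries and 4.57, 2.72 and 3.72 CPM in knockdown libraries. The groups were far apart, although the control values rest on 5 reads against 177 in the knockdown, and the log2 fold change was 5.17 ± 0.55 (edgeR adjusted p = 3.01e-06). Csf2, which encodes the cytokine GM-CSF (chromosome 11, 54247270 to 54249899), was at 0.205, 0.480 and 1.63 CPM in control libraries and 9.46, 14.7 and 16.7 CPM in knockdown libraries, a rise of 4.38 ± 0.44 on the log2 scale. Csf3, the gene of the related cytokine G-CSF (chromosome 11, 98700183 to 98703631), was at 46.8, 37.2 and 52.3 CPM in the control. In the knockdown it was at 168, 159 and 183 CPM, a rise of 1.91 ± 0.13 on the log2 scale. The G-protein regulator Rgs16 rose by 4.23 ± 0.30, from 0.514 ± 0.0531 to 9.68 ± 2.14 CPM (SD, n = 3). Complement C3 rose by 1.47 ± 0.12, from 56.6 to 157 CPM. The proteoglycan Vcan was at 15.02, 15.4 and 21.1 CPM in control libraries and 75.5, 75.1 and 71.8 CPM in knockdown libraries. The matrix glycoprotein Thbs1, the N-cadherin gene Cdh2, the spectrin gene Sptbn1, the collagen-binding integrin gene Itga2 and St5 were also picked in their class of level or span.

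Genes chosen in the same way among those whose RNA fell were of varied function. Krt6b, a keratin of hair follicle and activated epidermis, was at 57.4, 76.1 and 63.2 CPM in control libraries and 9.77, 10.65 and 10.998 CPM in knockdown libraries, a fall of 2.64 ± 0.14 on the log2 scale (edgeR adjusted p = 2.87e-09). Krt6a and Krt6b are near-identical, so the reads counted for Krt6b are uncertain. BC100530, a stefin-like gene with close copies, was at 49.7, 79.6 and 45.5 CPM in control libraries and 2.60, 3.20 and 2.97 CPM in knockdown libraries (log2 fold change -4.31 ± 0.22). Any read that aligned to several of its copies was counted for no gene, so this value is uncertain as well. Serpinb1a, an inhibitor of serine proteases, was at 53.7, 43.6 and 49.5 CPM in control libraries against 2.81, 6.41 and 3.19 CPM in knockdown libraries. Bpifc fell by 3.05 ± 0.22 and the aldehyde dehydrogenase gene Aldh3b2 had a log2 fold change of -2.71 ± 0.21. Sptlc3, a subunit of the enzyme that starts sphingolipid synthesis, fell by 2.43 ± 0.18, from 25.1 ± 2.37 to 4.69 ± 0.882 CPM (SD, n = 3). Krt15, a keratin of basal cells, was at 28.5, 38.9 and 15.6 CPM in control libraries and 1.14, 6.09 and 1.16 CPM in knockdown libraries. The call of Krt15 was lost without control replicate 2 (edgeR adjusted p = 0.069) and without knockdown replicate 1 (0.0774).

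Some genes had reads in one group only. Dapl1, a gene linked to epithelial differentiation, had 71 reads over the control libraries and 0 over the knockdown libraries. Against a floor of 3 reads over the group this is at least 21.3-fold lower in the knockdown. Lce1a2, which encodes a cornified envelope protein, had 40 control reads (at least 12.02-fold lower), and Cox6a2, Slc10a6 and Ly6g6e had 34, 25 and 19 control reads with 0 in the knockdown. In the other direction, Car2, a carbonic anhydrase gene, had 0 control reads and 24 knockdown reads (at least 8.88-fold higher). The catenin-family gene Ctnnd2 had 23 knockdown reads, Wipf1 20, and Cym and Pglyrp2 18 each, all with 0 in the control. Most reads of Ctnnd2, Cym and Pglyrp2 came from knockdown replicate 3, the deepest library (20, 16 and 13). Wipf1 had 0 in knockdown replicate 2 and Cym 0 in knockdown replicate 1. BC021614 had 78 control reads and 1 knockdown read, a ratio of 70.3 (95% exact interval 12.3 to 2812). Apol8 had 2 and 50, a ratio of 27.7 (7.29 to 235). These intervals and floors cover counting error only.

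**Figure D2:**
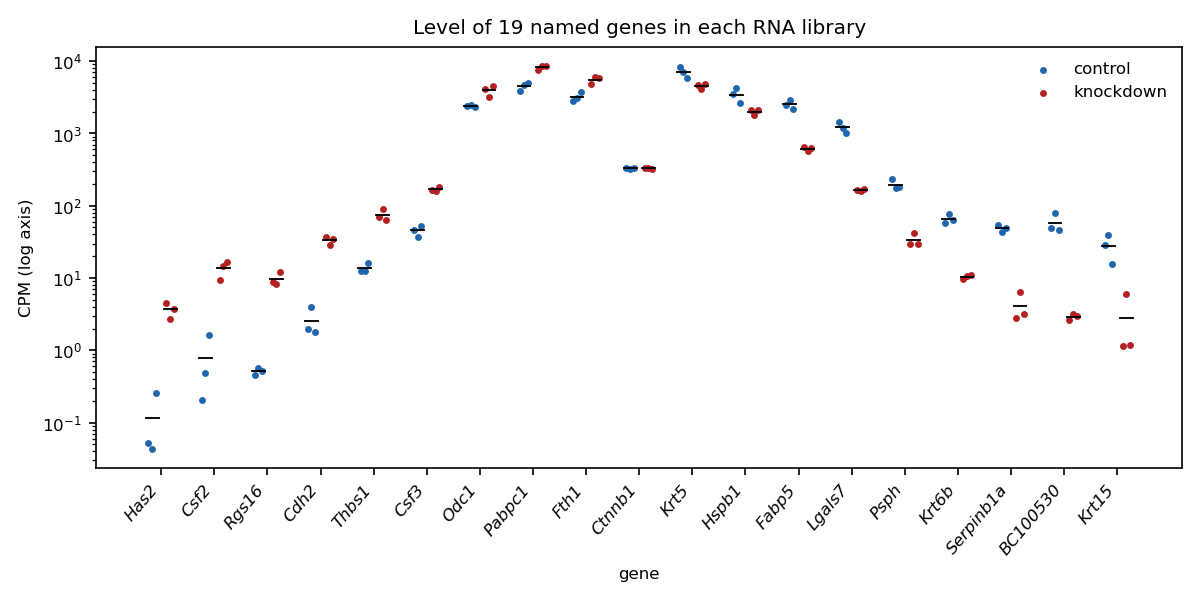
Level of 19 named genes in each RNA library (CPM, log axis), control in blue and knockdown in red, with 3 points per group and a bar at the mean. Has2, Csf2 and Rgs16 were near or below 1 CPM in most control libraries, Ctnnb1 was level, and Csf2, Has2 and Krt15 show a wide spread within a group.

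In CPM, the largest differences were in a few very abundant genes. Fabp5, the epidermal fatty acid-binding protein (chromosome 3, 10012585 to 10016610), was at 2478, 2907 and 2182 CPM in control libraries and 644, 570 and 627 CPM in knockdown libraries, a fall of 2.04 ± 0.14 on the log2 scale (edgeR adjusted p = 3.65e-08). The basal keratin Krt5 went from 7045 ± 1160 to 4573 ± 372 CPM (SD, n = 3; log2 fold change -0.62 ± 0.15), Krt17 fell by 0.65 ± 0.13 and the small heat shock protein gene Hspb1 by 0.78 ± 0.16. The largest rise was that of Pabpc1, the cytoplasmic poly(A)-binding protein (chromosome 15, 36595658 to 36609581), at 3845, 4613 and 5017 CPM in control libraries and 7547, 8545 and 8470 CPM in knockdown libraries. The ferritin chains Ftl1 and Fth1, which store iron, rose by 0.73 ± 0.15 and 0.80 ± 0.15. Odc1, the rate-limiting enzyme of polyamine synthesis, rose by 0.72 ± 0.14, from 2409 ± 71.6 to 3964 ± 690 CPM (SD, n = 3). Of the 20 genes with the largest gains and losses, 11 lost their call in at least 1 alternative: Eef2, Krt14, Hspa8 and the ribosomal protein genes Rps14, Rps3, Rpl13, Rpl12, Rplp0, Rps2, Rplp1 and Rps12. Pabpc1, the ferritins, Hspa8 and the ribosomal protein genes have many processed copies in the genome, and keratin genes have close relatives. Because reads that aligned to several places were counted for no gene, part of the reads of these genes could be missing. The share of reads with several alignments was higher in the knockdown, and its part in these values was not tested.

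The change in RNA went along with the length of the gene in the genome, taken as the span from start to end in the RefSeq table (11079 of the tested genes matched). Among 1257 genes that span under 5 kb, 9.71% were higher and 34.5% lower in the knockdown, with a median log2 fold change of -0.23. Among 909 genes of 100 to 200 kb, 34.9% were higher and 12.3% lower, with a median of 0.25. The shares crossed between 10 and 50 kb, and above 200 kb they were 29.9 and 13.5%. The pattern was seen at each level of expression. In the upper tercile of average level, 9.09% of those under 5 kb were higher and 44.4% lower, against 46.3 and 14.2% of those of 100 to 200 kb. In the lower tercile the same shares were 13.8 and 20.6% under 5 kb, and 25.8 and 9.80% at 100 to 200 kb. The genes with the smallest p in their band included the short Csf3 and Lgals7, which went in opposite directions, and, above 200 kb, Cdh2 and Bre. Bre, a subunit of a deubiquitinase complex that spans 387 kb, fell by 1.09 ± 0.11, against the direction of its band's median.

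Between single libraries this pattern was uneven. For each library the median deviation of genes of 100 kb or more was compared with that of genes under 10 kb. This value was -0.20, -0.43 and 0.04 in control libraries and 0.20, 0.30 and 0.11 in knockdown libraries, on the log2 scale. All knockdown libraries lay above all control libraries, but control replicate 3 and knockdown replicate 3 were close to each other. The mean difference was 0.40 (two-sided exact permutation test over the 6 libraries, p = 0.1, the smallest that 3 against 3 allows). It ranged from 0.28, without control replicate 2, to 0.52, without control replicate 3, and was 0.36 within the middle tercile of average level. With each library's span trend removed before the test, 2220 genes were higher and 2521 lower.

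**Figure D3:**
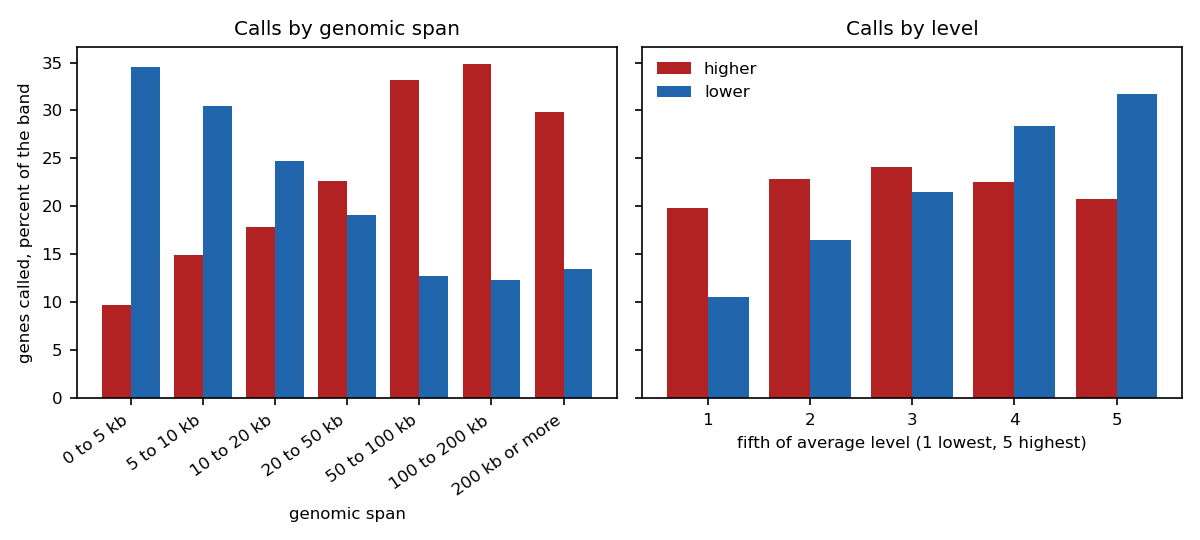
Percent of tested genes called higher (red) and lower (blue) in the knockdown, by genomic span on the left and by quintile of average level on the right. Higher calls go from 9.71% under 5 kb to 34.9% at 100 to 200 kb, while lower calls go from 10.6% in the lowest quintile of level to 31.7% in the highest.

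**Figure D4:**
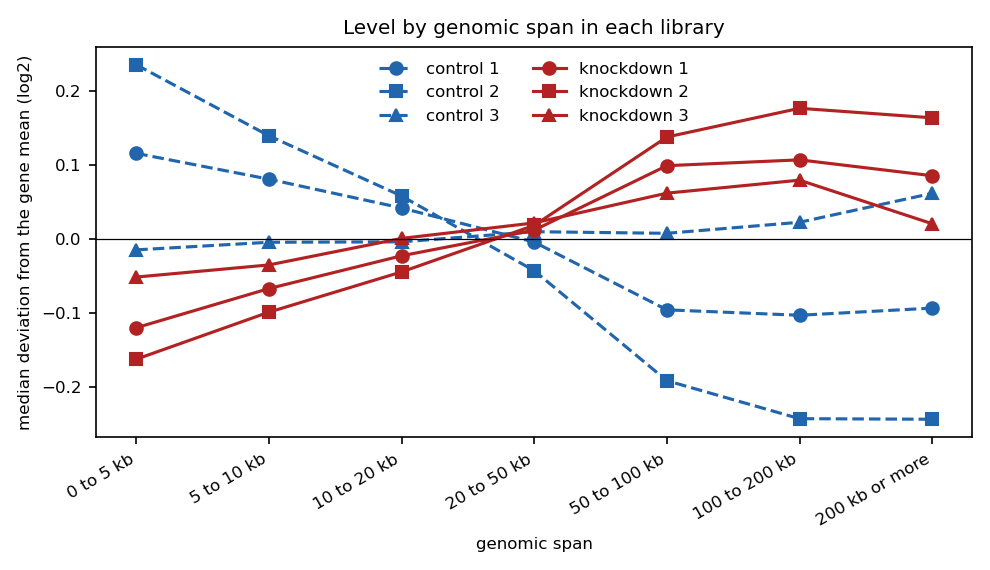
Median deviation from the gene's mean over the 6 libraries (log2) in each band of genomic span, 1 line per library, control dashed blue and knockdown solid red. Control replicates 1 and 2 fall with span and the 3 knockdown libraries rise, while control replicate 3 stays near 0.

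Over the expression range, genes called higher made up 19.8, 22.9, 24.2, 22.5 and 20.8% of the quintiles of average level from lowest to highest. Genes called lower made up 10.6, 16.5, 21.5, 28.4 and 31.7%. The median standard error of the fold change was 0.34 in the lowest quintile and 0.12 in the highest, so smaller changes could be called among abundant genes. The median log2 fold change was 0.22 in the lowest quintile and -0.11 in the highest. Per library, the median deviation of the highest quintile minus that of the lowest was 0.15, 0.27 and -0.05 in the control. In the knockdown it was -0.07, -0.29 and -0.05, so that control replicate 3 nearly met the knockdown libraries. The mean difference was -0.26 (two-sided exact permutation test, p = 0.1, the smallest possible). With a filter of 10 CPM it was -0.19 (exact permutation p = 0.3), and with a library left out the p was 0.2, the smallest then possible, without control or knockdown replicate 3 and 0.4 without each of the other libraries.

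The gene lists that follow are described by their counts, beside 22% higher, 21.7% lower and a median of 0.00 for all tested genes. Genes for attachment to the basement membrane were the list with the largest share called higher. Of 19 tested, 16 rose and 0 fell, with a median log2 fold change of 0.60 (0.51 with the span trend removed). Their reads made up 0.512, 0.450 and 0.658% of the control libraries and 0.95001, 0.963 and 0.928% of the knockdown libraries, with no overlap. Hspg2, which encodes the basement membrane proteoglycan perlecan (chromosome 4, 137468751 to 137570630), was at 64.4, 63.4 and 91.1 CPM in control libraries and 208, 243 and 221 CPM in knockdown libraries. Lama3, the alpha chain of laminin-332, rose by 1.40 ± 0.14, from 303 ± 54.7 to 797 ± 33.4 CPM (SD, n = 3). The hemidesmosome linker Plec rose by 1.47, and the 2 integrin chains of the hemidesmosome, Itga6 and Itgb4, by 0.55 and 0.57. Cd151, Dag1 and Dst did not pass, at -0.07, 0.00 and 0.56. Ribosome footprints of the same list were higher for 16 of 19 genes and lower for 0, beside 8.76% higher and 7.38% lower among all genes tested in footprints.

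Semaphorins, plexins and growth factor receptors were also more often higher than lower. Of 20 semaphorins, plexins and neuropilins tested, which carry guidance signals between cells, 13 rose and 0 fell, with a median of 0.90 (0.84 with the span trend removed). The secreted ligand Sema3c was at 57.3, 60.9 and 72.4 CPM in control libraries and 159, 155 and 153 CPM in knockdown libraries (log2 fold change 1.30 ± 0.11). The receptor Plxnb1 rose by 0.97 ± 0.13 and the co-receptor Nrp2 by 1.26, while Nrp1 did not pass (-0.08). Of 23 receptor tyrosine kinases, 13 rose and 1, the fibroblast growth factor receptor Fgfr3, fell (-1.18 ± 0.26), with a median of 0.64 (0.50 with the span trend removed). Met, the receptor of hepatocyte growth factor, rose by 0.98 ± 0.14, from 117 to 229 CPM, Igf1r by 0.78 ± 0.12 and Egfr by 0.81. Pdgfra, also on the fibroblast marker list, rose by 1.18. Eph receptors and ephrins did not share this: of 15, 3 rose (20%) and 2 fell (13.3%), with a median of 0.05. Epha2, the member with the smallest p, was at 145, 102 and 154 CPM in control libraries against 290, 315 and 309 CPM in knockdown libraries.

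Regulators of chromatin and of ubiquitin, many of them long genes, were more often higher than lower. Of 41 histone methyltransferases and demethylases, 21 rose and 0 fell, with a median of 0.44 that was 0.24 with the span trend removed. Jmjd1c rose by 1.13 ± 0.12, Setd1a by 0.79 ± 0.11 and Mll1, a methyltransferase of histone H3 lysine, by 1.54. Of 30 chromatin remodelers, 17 rose and 2, Smarcd2 and Smarcb1, fell, with a median of 0.46 (0.31 with the span trend removed). Bptf, which spans 99.1 kb, was at 49.9, 49.0 and 58.0 CPM in control libraries and 102, 102 and 97.1 CPM in knockdown libraries, and Chd8 rose by 0.92 ± 0.11. Among HECT-domain and related ubiquitin ligases, 19 of 27 rose and 1, Hectd3, fell, and the median of 0.53 became 0.33 with the span trend removed. Herc1 rose by 1.04 ± 0.13 and Huwe1 by 0.74 ± 0.13. Of 45 deubiquitinases, 17 rose and 4 fell (median 0.21, and 0.10 with the span trend removed). Of the 41 histone-modifying genes, 4 had higher and 2 lower footprints, beside 8.76 and 7.38% of all genes tested in footprints, and their median footprint change was 0.03. Whether the RNA and footprint changes differ in size was not tested.

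Subunits of some machines moved in opposite directions. Of 27 RNA polymerase subunits, 5 rose and 9 fell, with a median of -0.21. The 5 were Polr2a, Polr3a, Polr2b, Polr1b and Polr1a, which are all large subunits of the polymerases. Polr2a (chromosome 11, 69733997 to 69758633) was at 56.1, 60.4 and 73.6 CPM in control libraries and 157, 175 and 152 CPM in knockdown libraries, a rise of 1.35 ± 0.12. Polr3a rose by 0.99 ± 0.12, whereas Polr2h fell by 0.72 and Polr3gl by 0.80. Of 21 dynein and dynactin genes, 2 rose, both of them heavy chains (Dync1h1, 0.96 ± 0.14, and Dync2h1, 0.46), and 8 fell, among them Dctn2 (-0.68 ± 0.11). Of 36 kinesins, 14 rose, 1 fell and 21 were not called, with a median of 0.29 (0.19 with the span trend removed). The mitotic motor Kif20b rose by 0.98 ± 0.11 and the light chain Klc3 fell by 0.73 ± 0.11. Of 18 myosins, 10 rose and 4 fell, Myo1c and Myh14 among the latter (-0.76 ± 0.11 and -0.78 ± 0.11). The median of the myosins was 0.39, and 0.14 with the span trend removed.

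RNA processing lists were mixed. Of 32 SR proteins and hnRNPs, which bind pre-mRNA and guide splicing, 10 rose and 3 fell, with Hnrnph1 at 186, 181 and 177 CPM in control libraries and 319, 365 and 361 CPM in knockdown libraries. Srrm2 rose by 1.04 ± 0.14. Among 36 core spliceosome genes 5 rose, Sf3b3 (0.86 ± 0.12) and Prpf8 (0.84 ± 0.13) with the smallest p, and 10 fell. Their footprints were higher for 12 and lower for 1 of 36, beside 8.76% higher and 7.38% lower of all genes tested in footprints. Of 26 nucleoporins 11 rose and 3 fell (Nup153, 0.91 ± 0.12; Nup54, -0.75 ± 0.11), and the median of 0.22 became 0.08 with the span trend removed. Of 29 exosome and RNA decay genes 9 rose and 5 fell, the exosome subunits Exosc3 and Exosc7 by 1.00 ± 0.14 and 0.85 ± 0.13. The medians of Mediator and coactivators, exosome and RNA decay, tubulins, and secretory transport were within 0.03 of 0 and changed sign with the scaling or with a library left out. Of 38 Mediator and coactivator genes 10 rose and 6 fell (Med12 and Crebbp higher), of 19 tubulins and their cofactors 5 and 4 (Tbcb and Tbcc lower), and of 31 secretory transport genes 7 and 7 (Sec24d and Sec16a higher). For the tubulins and their cofactors footprints were higher for 7 and lower for 0 of 16 tested. Of 21 cohesin and condensin genes 9 rose and 1, Ncaph2, fell (median 0.27, and 0.16 with the span trend removed), while Nipbl, which loads cohesin, rose by 0.56 ± 0.11. Of 31 cullins and adaptors 6 rose and 8 fell (Cops6 and Cops7a lower), and of 13 chaperonin and prefoldin genes 4 fell (Cct5 and Pfdn2 with the smallest p) and 0 rose.

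**Figure D5:**
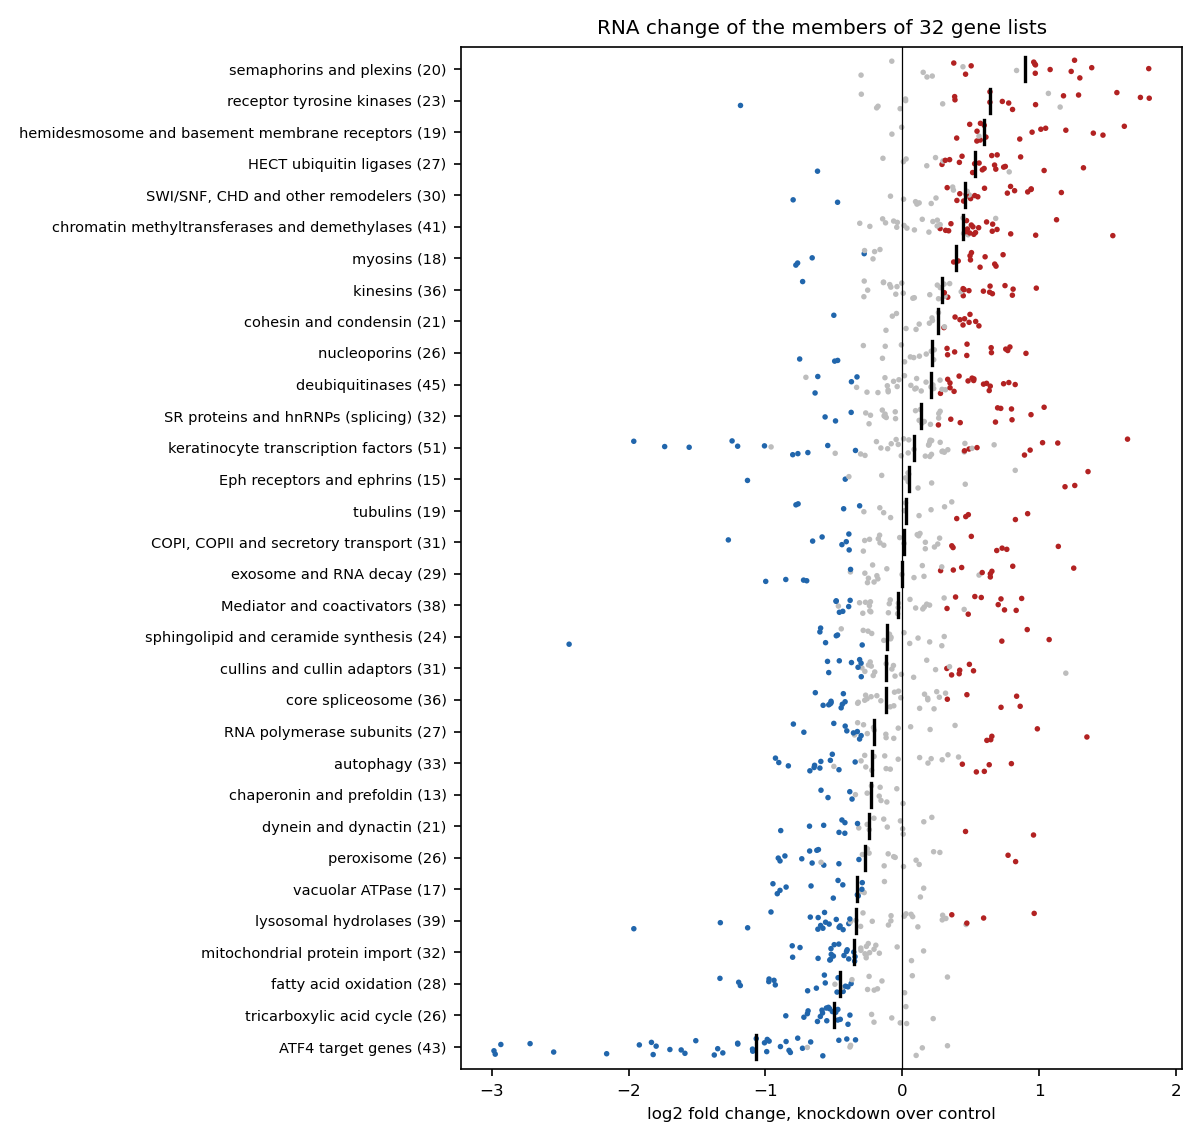
Log2 fold change of each tested member of 32 gene lists, called higher in red, called lower in blue and not called in grey, with a black bar at the list's median and the number tested in brackets. Medians run from -1.07 for ATF4 target genes to 0.90 for semaphorins and plexins.

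Genes of mitochondrial metabolism and import were called lower far more often than higher. Of 26 genes of the tricarboxylic acid cycle and pyruvate dehydrogenase, 19 fell and 0 rose, with a median of -0.50 with or without the span trend. Their reads made up 0.390, 0.377 and 0.372% of the control libraries and 0.302, 0.283 and 0.289% of the knockdown libraries. Suclg1, a subunit of succinate-CoA ligase, was at 152, 165 and 130 CPM in control libraries and 80.1, 78.7 and 88.2 CPM in knockdown libraries, and Dld fell by 0.72 ± 0.11. Of 28 genes of fatty acid oxidation, 17 fell and 0 rose, with a median of -0.46. Etfb, an electron carrier of this pathway, fell by 1.33 ± 0.13, from 192 ± 27.99 to 76.5 ± 6.71 CPM (SD, n = 3), and the thiolase gene Acaa2 by 1.20 ± 0.11. Of 32 genes of mitochondrial protein import 18 fell and 0 rose, with Grpel1 and Hspa9 at -0.80 ± 0.12 and -0.75 ± 0.13. Footprints were lower for 4 of 26 genes of the cycle, 7 of 26 of fatty acid oxidation and 3 of 32 of import, against 7.38% of all genes tested in footprints. Footprints were higher for 0, 0 and 2 of them.

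Genes of lysosomes, autophagy and peroxisomes were also lower more often than higher, with exceptions. Of 17 subunits of the vacuolar ATPase, the proton pump of the lysosome, 12 fell and 0 rose. Atp6v0d1 was at 126, 140 and 132 CPM in control libraries and 67.5, 73.1 and 70.3 CPM in knockdown libraries, and Atp6v1b2 fell by 0.89 ± 0.11. Of 39 lysosomal genes 18 fell and 4 rose. The cathepsins Ctsc (chromosome 7, 88278024 to 88315861) and Ctsh fell by 1.96 ± 0.17 and 1.13 ± 0.13, while the cholesterol transporter Npc1 rose by 0.60 and Gnptab, which tags lysosomal enzymes for sorting, by 0.96. Of 33 autophagy genes 12 fell and 5 rose. The receptor Sqstm1 and the membrane-bound Map1lc3a were among the lower ones (-0.93 ± 0.14 and -0.90 ± 0.15), and the lipid transfer genes Atg2a and Atg2b among the higher ones (0.54 and 0.60). Of 26 peroxisome genes 11 fell, catalase (Cat, -0.86 ± 0.15) and Pex16 (-0.91 ± 0.13) among them, and 2 rose. In the list of 24 genes of sphingolipid synthesis, 7 fell, Sptlc3 the most, and 3 rose, among them the glucosylceramide synthase gene Ugcg (1.07 ± 0.15).

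Targets of ATF4, the transcription factor that drives amino acid synthesis and uptake in the integrated stress response, were the list with the lowest median. Of 43 tested, 37 fell and 0 rose, with a median of -1.07 (-1.03 with the span trend removed). Their reads made up 1.31, 1.03 and 1.27% of the control libraries and 0.636, 0.719 and 0.617% of the knockdown libraries, with no overlap. Psph, which makes serine, was at 237, 173 and 179 CPM in control libraries and 29.6, 41.9 and 29.5 CPM in knockdown libraries, a fall of 2.55 ± 0.16 (edgeR adjusted p = 1.2e-08). Cth, which makes cysteine, fell by 1.70 ± 0.14, and Chac1, which degrades glutathione, had a log2 fold change of -2.16 ± 0.24. Trib3 was at 203, 81.0 and 167 CPM in control libraries and 12.7, 35.2 and 10.4 CPM in knockdown libraries. It lost its call with a replicate block and without each of 3 libraries (edgeR adjusted p up to 0.141). Those libraries were control replicate 3 and knockdown replicates 1 and 3. Atf4 itself fell by 0.58, and the 6 that did not pass were Slc7a3, Slc1a4, Sesn2, Atf3, Slc7a1 and Slc38a2. Footprints were lower for 34 of the 41 list members tested in them.

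ATF4 binds as a dimer with C/EBP proteins to a composite element, here searched as TTGCATCA on both strands (reverse complement TGATGCAA), in windows from 250 bases before to 50 after the start of each gene. Of 8426 tested genes with a window in the RefSeq promoter table, 0.748% held it, against 1.83% of lower genes, 0.428% of higher genes and 29.4% of the ATF4 list (10 of 34 with a window). A gene can be listed as an ATF4 target because it holds this element, so the list's share is given as a description. The lower genes with the element also include members of the list. The following 30-base stretches (GRCm38.p6, written along the gene's strand, motif in capitals) are those of 7 of the 8 members of the list that hold the element and fell.
Nupr1, chr7:126625562-126625591, minus strand: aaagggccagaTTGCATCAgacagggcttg
Chac1, chr2:119351038-119351067, plus strand: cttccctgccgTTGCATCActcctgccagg
Pycr1, chr11:120643833-120643862, minus strand: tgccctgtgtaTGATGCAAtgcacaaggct
Slc7a11, chr3:50443642-50443671, minus strand: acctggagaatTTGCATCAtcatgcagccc
Yars, chr4:129189895-129189924, plus strand: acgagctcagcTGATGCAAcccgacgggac
Vldlr, chr19:27216809-27216838, plus strand: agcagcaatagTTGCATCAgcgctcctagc
Iars, chr13:49682126-49682155, plus strand: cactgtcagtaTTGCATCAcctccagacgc
Slc7a11, the cystine transporter, holds a further copy 19 bases upstream on the other strand. The amino acid transporter gene Slc1a4 and the stress-induced gene Atf3 hold the element too, and their RNA did not pass the test (log2 fold changes -0.38 and 0.10). The stretch of Atf3 is shown for comparison:
Atf3, chr1:191183425-191183454, minus strand: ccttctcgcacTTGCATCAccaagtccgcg
Outside the ATF4 list 53 tested genes held the element, of which 25 were lower, 8 were higher and the median was -0.36. Among these were Chchd10, Herpud1, Got1 and Echs1, all lower. A match is a description of the sequence and not of binding. It was 1 of 11 motifs searched, of which 8 had a larger share among lower genes than among all genes. Of the others searched, the ETS motif CCGGAAG was in 21.4% of all windows, 25.6% of those of lower genes and 16.8% of those of higher genes.

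Of 51 transcription factors of keratinocytes, 8 rose and 11 fell, and the list's median changed sign with the span trend removed (0.09 and -0.04). Ets1 rose by 1.65 ± 0.19, from 5.03 ± 0.102 to 15.9 ± 3.28 CPM (SD, n = 3), the mitotic regulator Foxm1 by 0.94 ± 0.13, and the inhibitors of differentiation Id1 and Id2 by 1.14 and 1.03. Maf, Cebpa and Cebpb, which promote epidermal differentiation, fell by 1.96, 1.74 and 1.20. Cebpb and Cebpg are also in the ATF4 list. Trp63, the regulator of the epithelial lineage, did not pass (0.20).

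Genes were also grouped by the letters of their symbol, without regard to function, for the 53 groups with at least 20 tested genes. The median was above 0 in 26 of them and below 0 in 27. Genes named Mrpl and Mrps, the 2 subunits of the mitochondrial ribosome, were lower for 37 of 47 and 22 of 29, with 1 (Mrpl42) and 0 higher. Genes named Cox, mostly of cytochrome c oxidase, were lower for 13 of 20 and higher for 0. Among keratins (Krt) 12 of 20 fell, and 3 rose: Krt8 and Krt18, the pair of simple epithelia, by 0.56 and 0.96, and Krt80 by 0.64. The Rpl group, of ribosomal proteins of the large subunit, fell in 15 of 45, and 1 rose (Rpl12). Its median of -0.26 became -0.07 with the span trend removed, and footprints were higher for 5 and lower for 0 of 45. Rplp0 and Rplp1, also of the large subunit, are outside this group by their letters, and both were called higher in the main fit. The Rps group, which by its letters also holds the Rps6ka kinases, had 4 higher and 6 lower of 41, and its median of -0.14 became 0.05 with the span trend removed. On the other side, 84 of 300 zinc finger genes named Zfp rose and 11 fell, with a median of 0.33 (0.32 with the span trend removed). Centrosomal Cep genes rose in 17 of 30 and fell in 1. For the Zfp group footprints were higher for 1 and lower for 2 of 136 tested, and for the Mrpl group higher for 1 and lower for 3 of 47, beside 8.76% higher and 7.38% lower of all genes tested in footprints.

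Changes were spread over the chromosomes, with medians from -0.06 (chromosome 15) to 0.07 (X) over the autosomes and X, 20 chromosomes in all, leaving out Y with its 4 tested genes. In 10 places 3 or more neighbouring tested genes changed by 1 or more on the log2 scale in the same direction, 5 upward and 5 downward. On chromosome 11 (99477973 to 100135949) the keratin genes Krt23, Krt32, Krt13 and Krt15 were all lower, with log2 fold changes from -3.41 to -2.44. On chromosome 5 (90786101 to 90905938) the chemokine genes Cxcl3, Cxcl1 and Cxcl2 were higher, Cxcl1 from 123 ± 16.4 to 252 ± 29.6 CPM (SD, n = 3). On chromosome 16 the stefin genes Csta and Stfa3 were lower with their neighbour Eaf2 and 1 predicted gene, and on chromosome 9 the glutathione transferase genes Gsta4 and Gsta1 were lower with another predicted gene. The chemokine, stefin and glutathione transferase genes include close copies, and reads that aligned to several of them were counted for no gene.

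Ribosome footprint libraries of the knockdown and control groups gave a further readout. Of 8969 genes tested in footprints, 16.1% were called, 8.76% higher and 7.38% lower. Among genes higher in RNA, 1966 were tested in footprints, 86.2% moved upward, 594 were called higher and 3 lower. Among genes lower in RNA, 2182 were tested, 87.6% moved downward, 548 were called lower and 3 higher. Among genes not called in RNA the 2 assays had the same sign in 61.2% of 4770. The 3 that were higher in RNA and lower in footprints were Fam199x, Rbm28 and Zfp518a, with footprint changes of -1.21 ± 0.23, -0.55 ± 0.18 and -1.09 ± 0.36. Those lower in RNA and higher in footprints were the initiation factor gene Eif1ax (RNA -0.53, footprints 0.45), the tubulin cofactor gene Tbca (-0.31 and 0.49) and the ubiquitin-conjugating enzyme gene Ube2v1 (-0.38 and 0.62). The 594 became 379 without control replicate 1 and 377 without knockdown replicate 3 of the footprint libraries. The 548 became 299 without knockdown replicate 1 and 324 without knockdown replicate 3.

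The study also listed Musashi-2 binding regions found by crosslinking in 3' untranslated regions. Of 1148 tested genes with such a region, 346 were higher (30.1%) and 209 lower (18.2%), beside 22 and 21.7% of all tested genes, with a median log2 fold change of 0.07 (0.02 with the span trend removed). Genes with a region were mostly abundant, so the share was read within levels. In the highest quintile, 32.6% of higher genes, 19.01% of lower genes and 23.2% of genes not called had a region. In the middle quintile the shares were 9.87, 3.56 and 8.36%. No test of these shares was made, and abundance within a quintile and the length of the untranslated region were not matched.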

How the data were processed

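The deposited tables hold raw counts per gene, which the authors took over coding sequences from RNA and from ribosome footprints; the submitters' processing notes name TopHat, HTSeq and DESeq on mm10 without versions or roles. The deposited list of 3' UTR binding regions gives a signal per region, the total peak height over 5 crosslinking libraries, and was used only for which genes have a region. The 5 HTSeq summary lines stayed out of library sizes and tests. Between 32.3 and 35.2% of a library fell in no gene, and 0.175 to 0.228% were ambiguous.

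The 3 knockdown and 3 control RNA libraries were compared by the robust quasi-likelihood test of edgeR 4.0.16 under R 4.3.3. Genes were kept by filterByExpr (count 10, total 15), libraries were scaled by TMM, and p-values were adjusted by Benjamini-Hochberg over all tested genes (threshold 0.05). Footprints were fitted apart in the same way. Errors of fold changes are standard errors of the fit, and errors of CPM are SD over 3 libraries. Single values per library were compared with a two-sided exact permutation test. Deviations were taken on log2 CPM with a pseudocount of 0.5 CPM. Spans, positions and promoter windows came from RefSeq tables of GRCm38.p6, in which 20446 of the symbols matched. The edgeR fit was also run on simulated counts with few changed genes and no span trend. That setting differs from these data, so it does not check the calls made here.

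Alternatives were DESeq2 1.42.0, limma-voom (limma 3.58.1), upper-quartile or no scaling factors, other filters, a replicate block, removal of the span trend (loess, span 0.5), leaving out predicted and unmatched genes, and each library left out. Coding lengths were not analysed here.

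Genes, lists and tests were chosen with earlier results of these data known. The named genes are Msi2 and Msi1, the 10 largest rises and falls in CPM, the 2 largest rises and falls per quintile of level, the smallest p per direction and span band, the 2 smallest p per list, the 5 genes per direction with reads in one group only, and the 10 most abundant steady genes. The picks by CPM and per quintile were limited to called genes with groups that do not overlap, and those per span band to called genes. Other members were named after their values were seen. Predicted genes are given as counts without names. Some items that the rule picks are not reported here.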

Additional observations from a re-analysis of the deposited data

How the results depend on the processing

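No called gene changed direction in any alternative. Of the called genes, from 71.5% (without control replicate 1) to 98.4% (limma-voom) were also called in the same direction. Counts of higher and lower genes were 2355 and 2421 with DESeq2, 2692 and 2150 with upper-quartile factors, 2624 and 1890 without scaling factors, 2786 and 2704 with limma-voom, and 2052 and 1924 with a filter of 10 CPM. Higher genes thus made up 46.8 to 58.1% of calls, and upper-quartile and no scaling factors moved the median of all genes by 0.04 and 0.07. With each library left out in turn the counts were 1708 to 2721 and 1840 to 2765. With a replicate block 2042 genes were higher and 1932 lower. The labels do not say that replicate numbers pair the samples. Libraries of the same number had correlations of deviations from their group means of 0.06, -0.28 and -0.23. Between different numbers they ran from -0.11 to 0.305, both with control replicate 3. Deviations within a group cancel out, which ties these values together, so they cannot decide whether libraries were paired.

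The differences by span and by level kept their sign in every alternative run (0.28 to 0.52 and -0.34 to -0.18 with a library left out), but the groups no longer separated by level with a filter of 10 CPM or without each of 4 libraries (exact permutation p = 0.3 and 0.4). Of the RNA-higher genes 383 had higher footprints with DESeq2 and 377 to 651 with a library left out, and of the RNA-lower genes 325 had lower footprints with DESeq2 and 299 to 622. The cause was not tested. Of 132 named genes 111 were called, 98 of them in every alternative that tested them. Some were left out of an alternative by its filter or for want of a matched span. Msi1 passed with limma-voom (1.12). Alternatives and differences by coding length were not run. Depth limits the lowest quintile, where the median standard error was 0.34.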
